A study of Homo sapiens with 6 samples.

Results

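The miR-374 family and miR-421 were followed in 2 human lung epithelial lines treated with transforming growth factor beta 1 (TGF-β1), and they made up 7 of the 2588 mature miRNAs counted in each library. The rows were hsa-miR-374a-5p, hsa-miR-374a-3p, hsa-miR-374b-5p, hsa-miR-374b-3p, hsa-miR-374c-5p, hsa-miR-374c-3p and hsa-miR-421, selected by name. The names were chosen from earlier results of these same counts, in which the levels and ratios to control were already in view. All levels and ratios below are therefore a description, and none was tested. A549 is a line from a human lung adenocarcinoma, and BEAS-2B is a virus-immortalised line of human bronchial epithelium. Both were labelled wild type and were kept in RPMI medium for 48 h, either as untreated controls or with 1 or 5 ng/mL of the cytokine TGF-β1. TGF-β1 is a secreted growth factor known to push epithelia into a mesenchymal, matrix-producing state, and the study used it to model fibrosis. The labels give a low-serum medium for the treatment, which the study's methods do not mention. Each of the 6 groups had 1 library, and small RNA counts hold no marker mRNAs against which to check the line labels.

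A miRNA is cut from a hairpin, and the 2 arms of the hairpin give a 5p and a 3p product. One strand is loaded into an Argonaute protein, and bases 2 to 8, the seed, do most of the pairing with target mRNAs. The miR-374 and miR-421 hairpins lie in introns of FTX, a long noncoding RNA gene of the X-inactivation centre, and those on the strand of FTX are thought to be cut from its transcript.

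In GENCODE release 29 on GRCh38, FTX spans chrX:73946555-74293574 on the minus strand. MIR374B (chrX:74218547-74218618) and MIR421 (chrX:74218377-74218461) are separated by 85 bases. MIR374A (chrX:74287286-74287357) and MIR545 (chrX:74287104-74287209) are separated by 76 bases, and 68485 bases lie between these 2 groups. All 4 are on the minus strand. MIR374C (chrX:74218549-74218618) is on the plus strand, opposite MIR374B. Each hairpin was intronic in every FTX transcript that spans it, 13 for MIR374A and MIR545 and 7 for the other 3, and exonic in 0.

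The mature sequences available from RefSeq on GRCh38.p14 follow, 5′ to 3′ with the seed in capitals, because the seed bears on which targets a member can pair with. miR-374a-5p is not among them.
miR-374a-3p: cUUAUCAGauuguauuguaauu
miR-374b-5p: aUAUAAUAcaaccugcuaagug
miR-374b-3p: cUUAGCAGguuguauuaucauu
miR-374c-5p: aUAAUACAaccugcuaagugcu
miR-374c-3p: cACUUAGCagguuguauuauau
miR-421: aUCAACAGacauuaauugggcgc
Among the 6 listed, no 2 shared a seed. The seed of miR-374a-5p was not compared here, and as background it is known to be the same as that of miR-374b-5p. The 3p arms of miR-374a and miR-374b were identical at 18 of 22 bases and differed by U5G, A9G, G17A and A19C, counted from the 5′ end with the miR-374a-3p base first. Of these, U5G lies in the seed. The seed of miR-374c-5p was found in 1 other miRNA with at least 10 counts in a library, miR-655-3p, which comes from a locus on chromosome 14.
miR-655-3p: aUAAUACAugguuaaccucuuu

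The hairpins are shown next, with the RefSeq mature products in capitals, because the opposite strands at MIR374B and MIR374C bear on how 4 of the 7 rows can be read.
MIR374A: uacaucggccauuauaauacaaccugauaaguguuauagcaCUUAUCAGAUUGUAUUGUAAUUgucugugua
MIR374B: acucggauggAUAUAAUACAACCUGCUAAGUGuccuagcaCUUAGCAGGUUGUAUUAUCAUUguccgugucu
MIR374C: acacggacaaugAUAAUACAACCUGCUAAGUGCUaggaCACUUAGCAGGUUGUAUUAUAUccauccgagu
All 70 bases of MIR374C are found in the reverse complement of MIR374B. miR-374b-5p and miR-374c-3p are exact reverse complements over 22 bases, both at chrX:74218587-74218608. miR-374b-3p (chrX:74218557-74218578) and miR-374c-5p (chrX:74218561-74218582) overlap by 18 bases on opposite strands. In the same sense, miR-374b-5p and miR-374c-5p also share a run of 20 bases, and miR-374b-3p and miR-374c-3p share 18.

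The miR-374b-5p and miR-374c-3p rows had nearly equal counts in every library. miR-374b-5p had 559, 343 and 212 counts in A549 at 0, 1 and 5 ng/mL, and miR-374c-3p had 596, 361 and 232. In BEAS-2B, the counts were 355, 309 and 416 for miR-374b-5p and 384, 279 and 402 for miR-374c-3p. Of both rows together, miR-374b-5p took between 47.7% and 52.6% of the counts, and the exact Clopper-Pearson 95% interval held 50% in 6 of 6 libraries. Over all libraries its share was 2194 of 4448 counts, or 49.3% (47.8 to 50.8). How strand entered the counting is not given in the sources used here, nor is whether a read could enter both rows. Whether the 2 rows hold separate products was not tested, and they are not independent evidence of each other. Both rows still enter the member counts and medians below, so the same reads may be represented in both.

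A near-equal split was also seen at other loci where mature miRNAs have the same coordinates on opposite strands. Among 31 opposite-strand pairs with any overlap, 9 had at least 100 counts over the 6 libraries, and 3 of these had the same coordinates. Besides the miR-374 pair, these were miR-103a-3p with miR-103b, where miR-103a-3p took 50.4% (49.6 to 51.2), and miR-423-5p with miR-3184-3p, where miR-423-5p took 51.6% (50.3 to 52.9). The interval of the latter pair did not hold 50%. These 4 miRNAs were named after their values were seen. The partly overlapping pair of miR-374b-3p and miR-374c-5p had 290 and 230 counts in all, a share of 55.8% (51.4 to 60.1) for miR-374b-3p. By library, that share ran from 43.5% in the BEAS-2B control to 62.6% in the A549 control. The minor pair was thus split less evenly than the major pair, with from 44 to 139 counts in a library. Other partly overlapping pairs with at least 100 counts were mostly uneven, with shares from 34.0% to 94.2% for the plus-strand row.

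**Figure D1:**
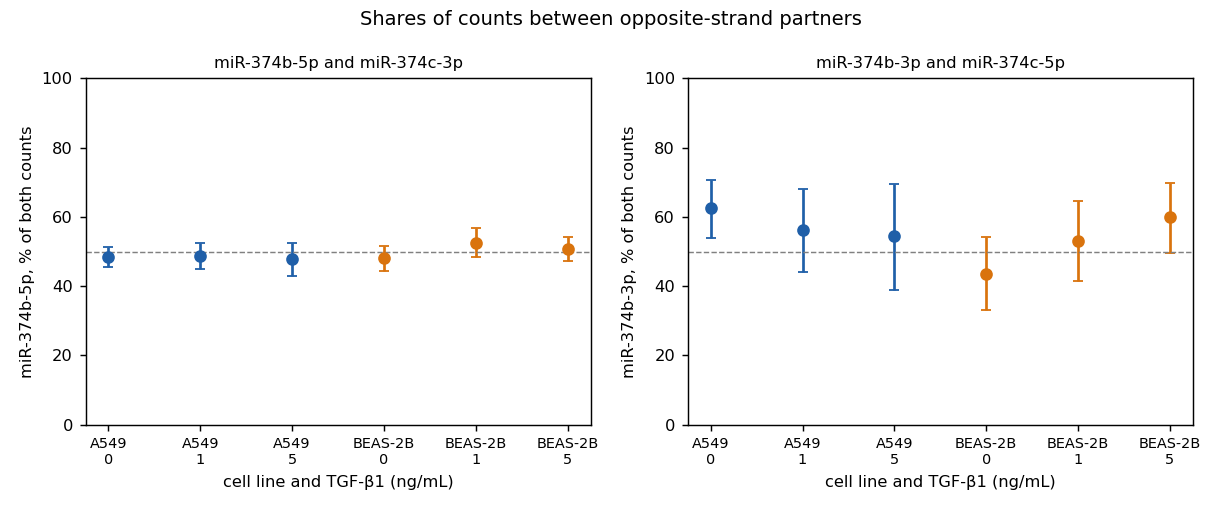
Share of counts, in percent with exact 95% intervals for counting error, taken by miR-374b-5p of miR-374b-5p plus miR-374c-3p (left) and by miR-374b-3p of miR-374b-3p plus miR-374c-5p (right), in A549 (blue) and BEAS-2B (orange) libraries at 0, 1 and 5 ng/mL TGF-β1. The left shares lie between 47.7% and 52.6% around the dashed 50% line, and the right shares spread from 43.5% to 62.6% with wider intervals.

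The libraries held from 633318 to 900424 counts, and between 902 and 1031 miRNAs had a count. miR-21-5p alone took from 35.4% of counts, in the BEAS-2B control, to 57.2%. That control also had the highest trimmed mean of M-values (TMM) scaling factor, 1.32 against 0.829 to 1.02 in the other 5 libraries. Counts were scaled by TMM to a common library size and are called normalised counts, with ND as log2(normalised count + 1). The thresholds of the study were used to count miRNAs, an ND of at least 8 (a normalised count of 255) and a fold change of at least 1.4. The normalisation behind the study's ND is not given in the sources used here, so the 2 ND scales may differ. TMM scaling, the added 1 and applying the ND threshold to the higher of the 2 libraries compared were choices made here. All intervals are 95% exact intervals and cover counting error only. Reads are not independent molecules, and the spread between cultures is unknown.

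Taken row by row, miR-374a-5p was the most abundant member in 6 of 6 libraries. The miR-374b-5p and miR-374c-3p rows, if summed, had from 0.890 to 1.401 times its counts. The normalised count of miR-374a-5p was 1104, 794 and 450 in A549 at 0, 1 and 5 ng/mL. In BEAS-2B, it was 515, 579 and 573, respectively. The A549 values were spread over a wide range and lay on both sides of the BEAS-2B values, which stayed close together. Its rank in the library moved from 49 to 89 in A549 between 0 and 5 ng/mL, and from 74 to 68 in BEAS-2B.

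miR-374a-3p, the other arm of the same hairpin, had normalised counts of 337, 210 and 100 in A549, against 134, 210 and 214 in BEAS-2B. The lines crossed near 1 ng/mL, where they had almost the same value. For miR-374b-5p, the normalised counts were 582, 344 and 247 in A549, against 273, 358 and 408 in BEAS-2B. The miR-374c-3p row followed it with 620, 362 and 270, then 295, 323 and 394, respectively. At 5 ng/mL, each of these 3 rows was lower in A549 than in BEAS-2B, whereas in the controls each was higher.

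The remaining members were sparse and did not reach an ND of 8 in any library. miR-374b-3p had normalised counts of 90.5, 40.2 and 27.9 in A549, against 30.8, 48.6 and 55.9 in BEAS-2B. miR-374c-5p had normalised counts of 54.1, 31.1 and 23.3 in A549 and between 37.3 and 42.8 in the 3 BEAS-2B libraries, where its raw counts were 52, 37 and 38. Thus, miR-374b-3p showed the crossing seen for the abundant rows, and the intervals of the 3 BEAS-2B levels of miR-374c-5p overlapped.

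miR-421, which lies beside miR-374b, had raw counts of 70, 30 and 30 in A549, against 24, 4 and 12 in BEAS-2B. Its normalised counts were 72.8, 30.1 and 34.9, and 18.5, 4.63 and 11.8, respectively. It was higher in A549 than in BEAS-2B at every dose and did not cross. The neighbour of miR-374a, miR-545, was nearly absent from the counts. miR-545-5p had 0 counts in 6 libraries, and miR-545-3p had 1 count in 1 library, BEAS-2B at 5 ng/mL. For the 0 counts of miR-545-5p, the upper bound was 4.10 to 5.82 CPM (counts scaled to the same library total), depending on the library. By contrast, miR-374a-5p had from 611 to 1344 CPM.

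**Figure D2:**
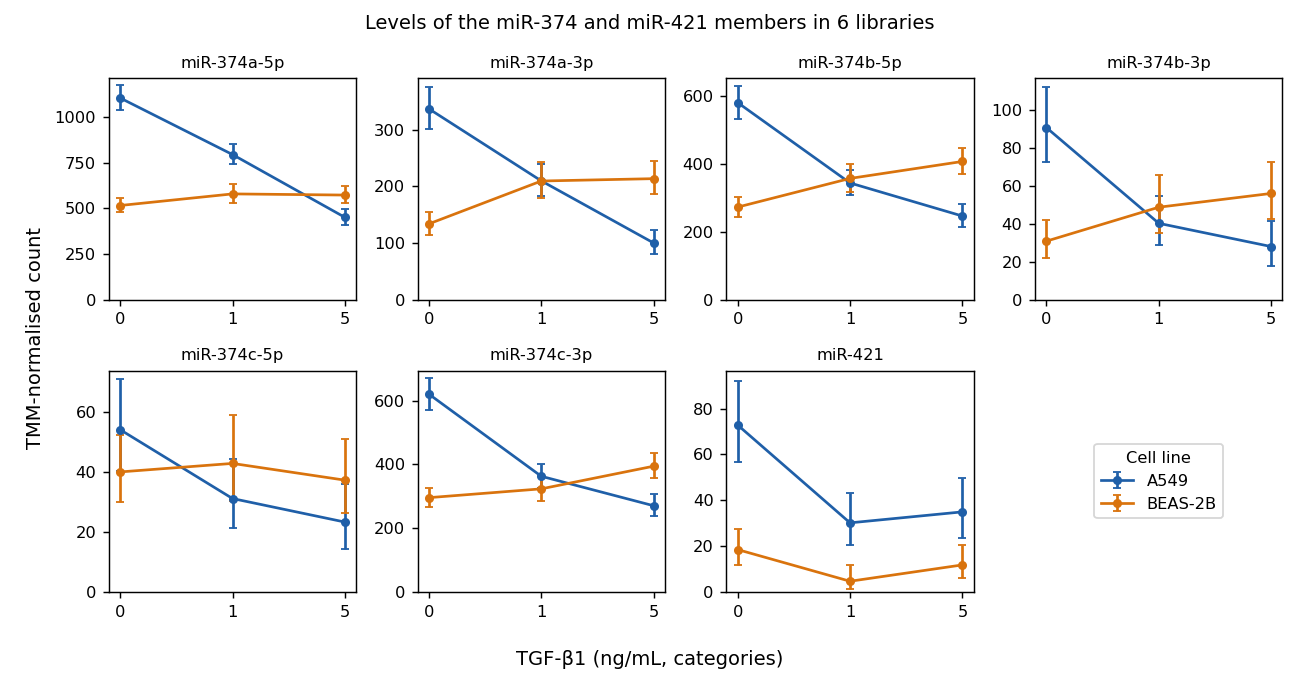
TMM-normalised counts of the 7 members (vertical axes, linear and starting at 0, with exact 95% counting intervals) against TGF-β1 dose in ng/mL (horizontal axes, as categories), in A549 (blue) and BEAS-2B (orange) cells, with 1 library per point. For miR-374a-5p the A549 values go from 1104 to 450 while the BEAS-2B values stay between 515 and 579, and the drawn lines cross for every member except miR-421. For miR-374c-5p, the interval of the difference between the controls holds 0.

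In A549, all 7 rows were lower at 5 ng/mL than in the control, with each interval below 0. The log2 ratio of miR-374a-5p was -1.29 (95% interval -1.47 to -1.12), or 0.408 of the control level. For miR-374a-3p it was -1.74 (-2.11 to -1.41), the lowest log2 ratio among the 141 miRNAs that met the ND threshold in this comparison. The log2 ratio was -1.23 (-1.47 to -1.01) for miR-374b-5p and -1.20 (-1.42 to -0.98) for miR-374c-3p. These 4 rows were all the members that met the ND threshold, and 4 of 4 passed the 1.4-fold threshold downward. Of these, miR-374a-3p and miR-374b-5p met the ND threshold only in the control, and the count was 2 when both libraries had to meet it. Of all miRNAs that met the ND threshold in the higher library, 26.2% passed downward. The 3 sparse members had log2 ratios of -1.66 (-2.41 to -1.03) for miR-374b-3p, -1.18 (-2.04 to -0.45) for miR-374c-5p and -1.04 (-1.73 to -0.42) for miR-421. The median log2 ratio was -1.23 over the 7 members and -0.03 over the 141 miRNAs.

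At 1 ng/mL, the A549 ratios had the same sign and most were smaller. miR-374b-5p had a log2 ratio of -0.75 (-0.95 to -0.56), miR-374c-3p one of -0.77 (-0.97 to -0.58) and miR-374a-3p one of -0.68 (-0.94 to -0.43). With these, 3 of 4 members that met the ND threshold passed the fold threshold downward, against 21.9% of all. Of these, miR-374a-3p met the ND threshold only in the control, and the count was 2 when both libraries had to meet it. miR-374a-5p, at -0.47 (-0.61 to -0.34), was just outside the threshold of 0.49 on the log2 scale, and 5 of 6 other scalings placed it past. The log2 ratio of miR-421 was -1.25 (-1.94 to -0.64). The median log2 ratio was -0.77 over the 7 members and -0.11 over all miRNAs that met the ND threshold.

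Between 1 and 5 ng/mL in A549, the miR-374a arms differed most. The log2 ratio of 5 against 1 ng/mL was -0.82 (-0.998 to -0.64) for miR-374a-5p and -1.06 (-1.45 to -0.70) for miR-374a-3p, which did not meet the ND threshold here. It was -0.48 (-0.74 to -0.23) for miR-374b-5p, just outside the fold threshold, and -0.42 (-0.67 to -0.18) for miR-374c-3p. Thus, 1 of 3 members that met the ND threshold passed downward, against 8.46% of all. For miR-421 it was 0.21 (-0.57 to 0.99), an interval that holds 0.

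In BEAS-2B, 5 of 7 members were above the control at 5 ng/mL and 2 were below it. At 5 ng/mL the log2 ratio to control was 0.58 (0.37 to 0.79) for miR-374b-5p, 0.41 (0.21 to 0.62) for miR-374c-3p and 0.15 (-0.01 to 0.31) for miR-374a-5p. Of these 3 members that met the ND threshold, only miR-374b-5p passed the fold threshold upward, and miR-374c-3p, its opposite-strand partner, did not. The share of all miRNAs that passed upward was 20.0%. miR-374a-3p had a log2 ratio of 0.67 (0.38 to 0.97) and miR-374b-3p one of 0.84 (0.25 to 1.48), both below the ND threshold. For miR-374c-5p it was -0.10 (-0.75 to 0.53) and for miR-421 -0.61 (-1.78 to 0.41), intervals that hold 0. The median was 0.41 over the 7 members and -0.08 over all miRNAs that met the ND threshold.

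The size and in part the sign of these BEAS-2B ratios depended on the scaling. Over 6 other scalings, the log2 ratio at 5 ng/mL ranged from -0.26 to 0.33 for miR-374a-5p, from 0.17 to 0.76 for miR-374b-5p and from 0.26 to 0.85 for miR-374a-3p. The median of all miRNAs that met the ND threshold itself moved from -0.51 to 0.12 in BEAS-2B and from -0.19 to 0.16 in A549. In A549, the same scalings gave -1.45 to -1.13, -1.39 to -1.08 and -1.90 to -1.59 for these 3 members, respectively. At 1 ng/mL in BEAS-2B, the log2 ratio was 0.39 (0.16 to 0.61) for miR-374b-5p and 0.64 (0.34 to 0.96) for miR-374a-3p. It was 0.13 (-0.10 to 0.36) for miR-374c-3p, 0.17 (-0.002 to 0.34) for miR-374a-5p and 0.10 (-0.55 to 0.73) for miR-374c-5p, intervals that hold 0. For miR-374b-3p it was 0.64 (0.0004 to 1.32). Over the 6 other scalings, it ranged from -0.20 to 0.43 for miR-374b-5p and from 0.06 to 0.68 for miR-374a-3p. Under TMM, 0 of 3 members that met the ND threshold passed upward, against 15.8% of all. miR-421 was at 4 counts against 24 in the control, a log2 ratio of -1.79 (-3.98 to -0.45). Under TMM scaling, the sum of all 6 miR-374 rows had log2 ratios of -1.32 and -0.65 at 5 and 1 ng/mL in A549. In BEAS-2B, they were 0.38 (0.29 to 0.48) and 0.28 (0.17 to 0.38), from 1715 and 1348 counts against 1675 in the control. The sums are given under TMM only, so whether the BEAS-2B signs hold under other scalings is not shown. The miR-374b-5p and miR-374c-3p rows in them may also hold the same reads.

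**Figure D3:**
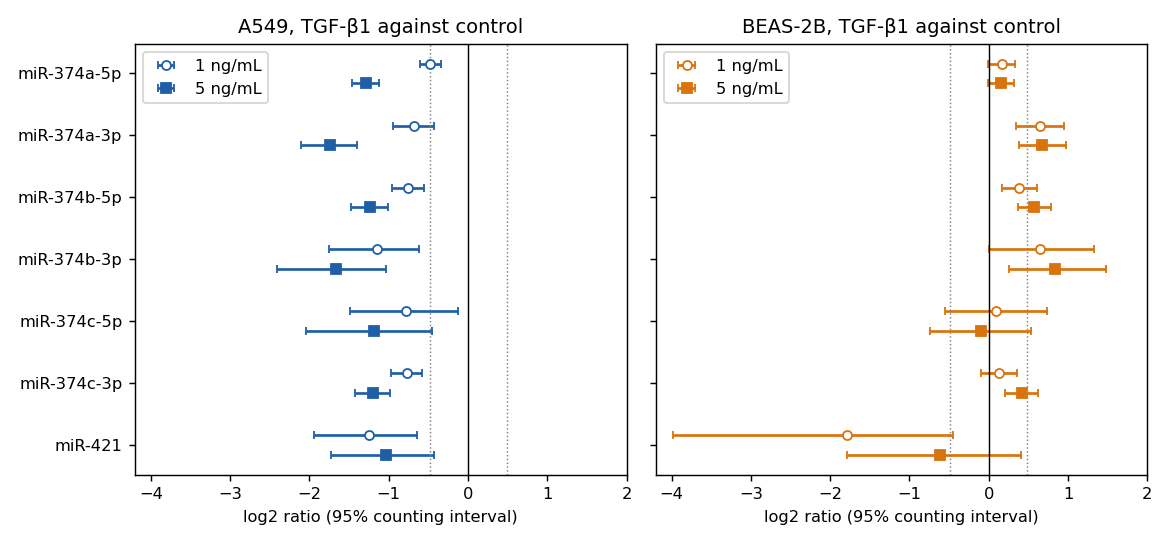
Log2 ratios of TGF-β1 to control (horizontal axes, with exact 95% counting intervals) for the 7 members in A549 (left) and BEAS-2B (right), at 1 ng/mL (open circles) and 5 ng/mL (filled squares). Dotted lines mark a fold change of 1.4, all A549 values lie below 0, and at 5 ng/mL the BEAS-2B values run from -0.61 for miR-421 to 0.84 for miR-374b-3p.

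At 5 ng/mL, the ratios to control differed between the lines by more than counting error for 6 of 7 members under TMM scaling, the exception being miR-421. The A549 log2 ratio minus the BEAS-2B log2 ratio was -1.44 (-1.68 to -1.21) for miR-374a-5p, -2.41 (-2.89 to -1.96) for miR-374a-3p and -1.81 (-2.13 to -1.50) for miR-374b-5p. It was -1.61 (-1.92 to -1.31) for miR-374c-3p, -2.50 (-3.50 to -1.62) for miR-374b-3p and -1.08 (-2.16 to -0.09) for miR-374c-5p. For miR-421, the difference was -0.43 (-1.68 to 0.91). Over 109 miRNAs that met the ND threshold in both lines, the median difference was 0.00, and miR-374b-5p, miR-374c-3p and miR-374a-5p had ranks of 3, 6 and 10 from the lowest. Under 6 other scalings, the difference ranged from -1.63 to -0.88 for miR-374a-5p and from -1.998 to -1.24 for miR-374b-5p. It ranged from -1.26 to -0.53 for miR-374c-5p, whose interval under TMM already reached -0.09. For miR-421, it ranged from -0.60 to 0.12.

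The order of the lines turned with dose. In the controls, the log2 ratio of A549 to BEAS-2B was 1.10 (0.96 to 1.24) for miR-374a-5p, 1.33 (1.06 to 1.61) for miR-374a-3p, 1.09 (0.90 to 1.29) for miR-374b-5p and 1.07 (0.88 to 1.26) for miR-374c-3p. All 4 of 4 members that met the ND threshold were past the fold threshold, against 40.7% of all. Of these, miR-374a-3p met the ND threshold only in A549 (ND of 8.40, against 7.08 in BEAS-2B), so the filter favoured this direction for it. The 6 other scalings gave lower values, from 0.56 to 1.05 for miR-374a-5p and from 0.55 to 1.04 for miR-374b-5p. At 5 ng/mL, the same log2 ratio was -0.35 (-0.54 to -0.16) for miR-374a-5p, -1.09 (-1.47 to -0.73) for miR-374a-3p, -0.72 (-0.97 to -0.48) for miR-374b-5p and -0.54 (-0.79 to -0.31) for miR-374c-3p. The other scalings also placed miR-374a-5p below BEAS-2B there, from -0.62 to -0.32. miR-421 was higher in A549 throughout, with log2 ratios of 1.92 (1.29 to 2.71), 2.47 (1.20 to 4.67) and 1.49 (0.56 to 2.67) at 0, 1 and 5 ng/mL.

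Ratios between members of 1 library do not depend on the scaling. The 3p arm took 23.4% (21.2 to 25.7) of both miR-374a arms in the A549 control, 20.9% at 1 ng/mL, then 18.2% (14.8 to 22.0) at the higher dose. In BEAS-2B, it took 20.6% (17.9 to 23.5), 26.6% and 27.2% (24.1 to 30.4), respectively. The arm balance thus moved in opposite directions in the 2 lines. The log2 change of the 3p to 5p ratio at 5 ng/mL was -0.46 (-0.86 to -0.07) in A549 and 0.52 (0.19 to 0.86) in BEAS-2B. At 1 ng/mL, it was -0.21 (-0.50 to 0.08) and 0.48 (0.12 to 0.83). In the controls, the arm ratio did not differ between lines beyond counting error (0.23, -0.07 to 0.54). For the miR-374b arms, the share of miR-374b-3p was between 10.1% and 13.5% in every library, with changes whose intervals held 0.

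The summed miR-374b-5p and miR-374c-3p rows had from 0.890 to 1.401 times the counts of miR-374a-5p, whose hairpin lies 68485 bases or more away in FTX. The ratio of this sum to miR-374a-5p was 1.09, 0.890 and 1.15 in A549, against 1.10, 1.18 and 1.401 in BEAS-2B. Against control, its log2 change was 0.08 (-0.16 to 0.31) in A549 at 5 ng/mL, so the loci kept their ratio within counting error there while both levels were lower. At 1 ng/mL in A549 it was -0.29 (-0.48 to -0.10), and in BEAS-2B at 5 ng/mL it was 0.34 (0.13 to 0.56). Summing assumes that no read entered both rows. With miR-374b-5p alone, these changes against control were 0.06, -0.28 and 0.43, respectively, and its ratio to miR-374a-5p ran from 0.434 to 0.712. Between 1 and 5 ng/mL, the log2 change of the summed ratio was 0.37 (0.12 to 0.62) in A549 and 0.25 (0.02 to 0.49) in BEAS-2B.

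miR-421 did not keep a fixed ratio to its neighbour miR-374b-5p. The ratio was 0.125, 0.0875 and 0.142 in A549, against 0.0676, 0.0129 and 0.0288 in BEAS-2B. In A549, the log2 change was within counting error, at 0.18 (-0.53 to 0.86) for 5 ng/mL and -0.52 (-1.22 to 0.15) for 1 ng/mL. In BEAS-2B, it was -1.23 (-2.38 to -0.15) and -2.38 (-4.39 to -0.82), resting on 12 and 4 counts of miR-421.

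**Figure D4:**
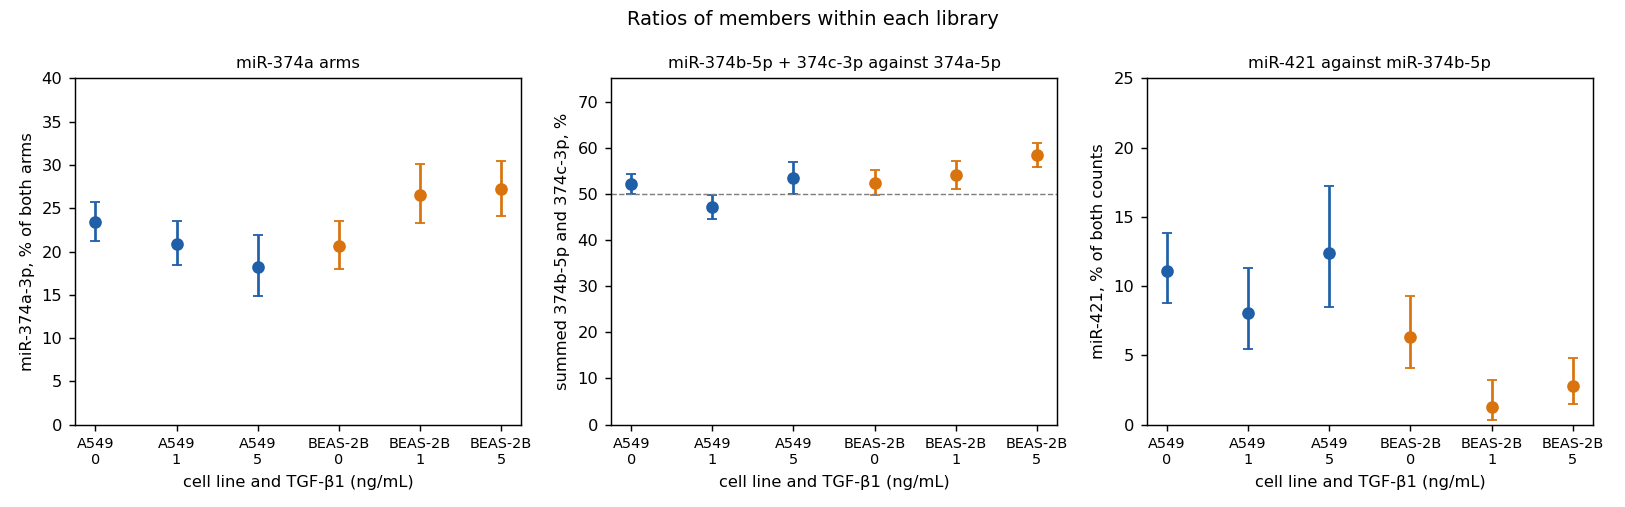
Shares within each library in percent (vertical axes, exact 95% counting intervals) for A549 (blue) and BEAS-2B (orange) at 0, 1 and 5 ng/mL TGF-β1: miR-374a-3p of both miR-374a arms (left), miR-374b-5p plus miR-374c-3p of these and miR-374a-5p (middle, dashed line at 50%), and miR-421 of miR-421 and miR-374b-5p (right). The left shares go from 23.4% to 18.2% in A549 and from 20.6% to 27.2% in BEAS-2B, and the right shares are lowest in BEAS-2B at 1 ng/mL, at 1.28%.

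For each member that reached an ND of 8, the single nearest profile over the 6 libraries was that of another member. The members were chosen with these values in view, so this likeness is a description only. Likeness was measured as the root mean square distance between ND values centred per miRNA, against the 156 other miRNAs that reached an ND of 8 anywhere. The distance between miR-374b-5p and miR-374c-3p, rows that may share reads, was 0.100. The median distance from miR-374b-5p to all others was 0.66. miR-374a-5p was nearest to miR-374c-3p (0.175), and miR-374a-3p to miR-374b-5p (0.198). Only miR-339-5p of chromosome 7 (0.170 from miR-374b-5p) and miR-450b-5p of chromosome X (0.187 from miR-374a-5p) were non-members among the 3 nearest. Of these, miR-450b-5p was nearer to miR-374a-5p than miR-374b-5p was (0.220). Likewise, miR-339-5p was nearer to miR-374b-5p than miR-374a-3p was (0.198). miR-450b-5p had a log2 ratio of -1.53 at 5 ng/mL in A549 and 0.13 in BEAS-2B, and miR-339-5p had -0.96 and 0.20.

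Other miRNAs of chromosome X are given as context, by counts only. Among 8 X-linked miRNAs that met the ND threshold in A549 at 5 ng/mL and were not members, the log2 ratio ranged from -1.53 to 0.58 with a median of -0.40. Of these, 3 passed the criteria downward and 1 upward, against 37 and 38 of all 141 that met the ND threshold. In BEAS-2B, 10 such miRNAs ranged from -1.06 to 0.83 with a median of -0.25. There, 3 passed downward and 1 upward, against 20 and 25 of all 125. At 5 ng/mL in A549, miR-374a-3p (-1.74) and miR-374b-3p (-1.66) were below this range and the other 5 members were inside it. At 1 ng/mL in A549, the 8 X-linked non-members ranged from -0.98 to 0.24 with a median of -0.51. There, miR-374b-3p (-1.15) and miR-421 (-1.25) were below this range and the other 5 members were inside it. Only miR-374a-5p (-0.47) was above the median. Among these 8 non-members, 4 passed downward and 0 upward, against 30 and 37 of all 137.

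The mature members were mostly low in GC content, from 22.7% for miR-374a-3p through 31.8% for miR-374b-5p, miR-374b-3p and miR-374c-3p to 36.4% for miR-374c-5p and 43.5% for miR-421. In A549 at 5 ng/mL, the log2 ratio rose by 0.21 for each 10 points of mature GC over 131 miRNAs with a sequence, members included. In BEAS-2B the slope was -0.01. The 37 non-members in the lowest GC group, up to 40.9%, had a median log2 ratio of -0.09 in A549, and 20 of them were below 0. The middle groups had medians of 0.05 and 0.38, in order of GC. The 29 non-members in the highest GC group had a median of -0.11, with 16 below 0. The group medians thus rose with GC except in the highest group. With the linear trend removed, the log2 ratio in A549 at 5 ng/mL was -1.21 for miR-374a-3p, -0.89 for miR-374b-5p, -0.86 for miR-374c-3p and -0.95 for miR-421. The part of GC content in the A549 ratios was not tested beyond this adjustment.

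**Figure D5:**
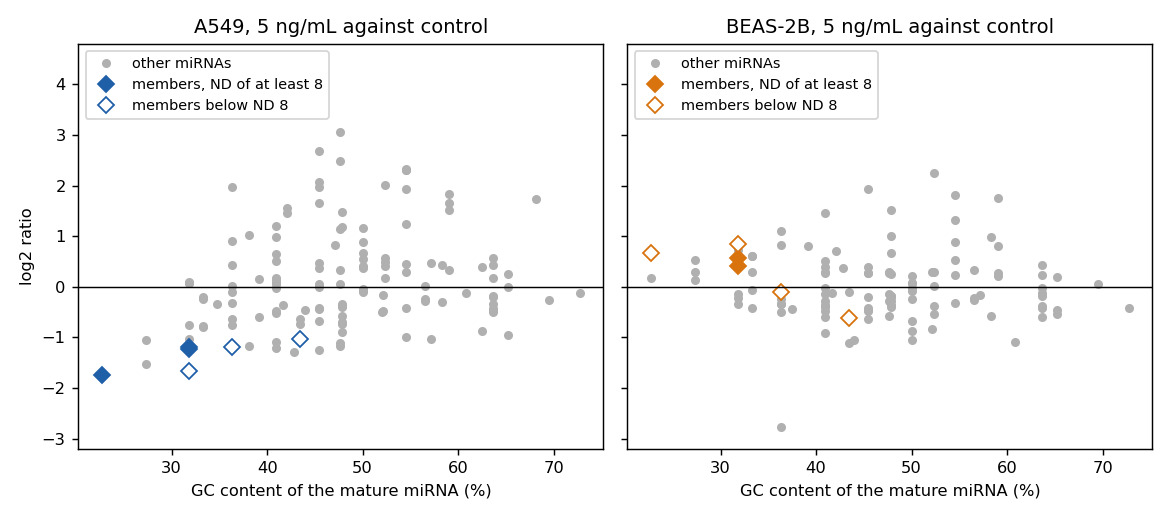
Log2 ratio at 5 ng/mL TGF-β1 against control (vertical axes) against GC content of the mature miRNA in percent (horizontal axes) in A549 (left) and BEAS-2B (right). Grey circles are other miRNAs that met the ND threshold, and diamonds are members that met it (filled) or did not (open), except miR-374a-5p, which is not plotted. In A549, miR-374a-3p at 22.7% GC and -1.74 is the lowest filled point.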

How the data were processed

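Small RNA libraries were made from total RNA of A549 and BEAS-2B cells after 48 h of treatment. The deposited files hold raw read counts per mature miRNA, made by the authors, as whole numbers without normalisation. Bowtie2 and bedtools are named in the submitters' processing notes, and the genome build, the miRNA annotation and the use of strand are not given in the sources used here. Counts were scaled by TMM over all 6 libraries with edgeR 4.0.16 in R 4.3.3 and brought to the mean effective size of 749498, and a pseudocount of 1 was added before log2. Groups were taken from the sample labels. With 1 library per group, no test was made and no p-value computed. Shares have exact Clopper-Pearson intervals, ratios exact conditional binomial intervals, and ratios of ratios exact conditional odds-ratio intervals. All were computed with scipy 1.17.1 in Python 3.11.15. Only the scaled ratios and their intervals were tried on simulated counts, which held Poisson counting error and no spread between cultures. Sequences came from RefSeq, which matched 2281 of 2588 names and 147 of the 157 with an ND of at least 8. The named miRNAs were all 7 members, miR-545, seed mates with at least 10 counts and the 3 nearest profiles. The members and lists were chosen with earlier results of these data known. Alternatives covered DESeq2 1.42.0 size factors, total-count scaling with and without miR-21-5p, limma 3.58.1 quantile normalisation, TMM within each cell line, unscaled counts, pseudocounts of 0.5 and 10, other ND and fold thresholds and removal of a GC trend. The sum of miR-374b-5p and miR-374c-3p was added after the data were seen.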

Additional observations from a re-analysis of the deposited data

Results flagged for a closer look

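The log2 ratio at 5 ng/mL lay on opposite sides of 0 in the 2 lines for 5 members, negative in A549 cells and positive in BEAS-2B cells. The A549 minus BEAS-2B difference was -1.44 for miR-374a-5p, -2.41 for miR-374a-3p, -1.81 for miR-374b-5p, -2.50 for miR-374b-3p and -1.61 for miR-374c-3p. The change in the 3p to 5p ratio of miR-374a also had opposite signs, with a difference of -0.98 on the log2 scale. Each group had 1 library, so none of these 6 differences was tested against the spread between cultures. The miR-374b-5p and miR-374c-3p values are not independent evidence of each other, since whether reads were shared between these opposite-strand rows is not given in the sources used here. The positive BEAS-2B value of miR-374a-5p turned negative under total-count scaling (-0.26) and without scaling (-0.20), whereas the arm ratio does not depend on scaling.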

How the results depend on the processing

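Of 264 recomputed member values, 238 stayed inside the counting interval of the reported value, 26 moved outside it, and 0 of those past the criteria changed sign. All 13 changes of sign were in BEAS-2B cells and came with a change of scaling. The scalings were total counts with or without miR-21-5p, quantile normalisation and unscaled counts. Why the BEAS-2B signs depended on the scaling was not tested. Of 56 recomputed counts of members past the criteria, 44 stayed within 1.5 times. In A549 cells, the count of 4 at 5 ng/mL became 2 when both libraries had to reach the ND threshold, and the count of 3 at 1 ng/mL became 0 at a fold change of at least 2. In BEAS-2B cells at 5 ng/mL, the count of 1 became 2 at an ND threshold of 7 and under total-count scaling without miR-21-5p. It became 0 at an ND threshold of 9, at a fold change of at least 2, with the interval wholly beyond 1.4-fold, with DESeq2 size factors, under total-count scaling, under quantile normalisation and without scaling. The BEAS-2B count of 0 at 1 ng/mL became 1 at an ND threshold of 7. For the 4 members that reached an ND of 8, 12 of 12 nearest profiles were shared with total-count scaling. A factor per library shifts all profiles alike, apart from the pseudocount and the ND filter, so this is no check of the likeness. No paired analysis was possible because each group had 1 library and the labels carry no replicate numbers. Depth limits miR-421 most, with 4 to 70 counts in a library.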

Other observations

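miR-655-3p, the seed mate of miR-374c-5p, had 6, 10 and 15 counts in A549 cells at 0, 1 and 5 ng/mL and 4, 2 and 2 in BEAS-2B cells. Its log2 ratio at 5 ng/mL in A549 cells was 1.35 (95% interval 0.04 to 3.14), opposite in sign to that of miR-374c-5p. In BEAS-2B cells it was -0.46 (-4.12 to 2.15).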
